A study of Homo sapiens with 4 samples.

Results

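The 7 genes described here encode the cleavage and polyadenylation specificity factor (CPSF) and its partner symplekin: CPSF1, CPSF2, CPSF3, CPSF4, FIP1L1, WDR33 and SYMPK. Each gene was defined by a strand-specific window on hg19, and every A-seq read that ended in the window counted for it. The windows held 29694 reads over all libraries and 24 of the 33723 sites (groups of neighbouring 3′ end positions) that averaged 1 RPM (a reads-per-million unit) or more over the libraries. Members were defined by gene name and position, not by a cut on their values, but the choice was made with earlier results of these data known.

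CPSF is the complex that finds the poly(A) signal of a pre-mRNA and cuts the transcript, after which the poly(A) tail is added. In textbook terms it has a recognition module and a cutting module. WDR33 and CPSF4 contact the AAUAAA hexamer, CPSF1 is the scaffold that holds them, and FIP1L1 brings in poly(A) polymerase. CPSF3 is the endonuclease, CPSF2 is its inactive partner of the same protein family, and symplekin is the scaffold that ties both to other 3′ end factors. Every mRNA of these genes is itself cut and polyadenylated, so the genes are both the makers and the subjects of the reaction.

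A-seq sequences the stretch just upstream of the poly(A) tail, so that the 3′ end of a read marks where a transcript was cut. It was applied to HEK293, an established cell line of embryonic kidney origin. The 4 groups were cells without siRNA, cells with a control siRNA named scrambled-A, cells with an siRNA against CstF-64 and cells with an siRNA against CF Im 68, and siRNA-treated cells were harvested after 3 days. CstF-64 binds U- and GU-rich RNA downstream of the cut, and CF Im 68 belongs to cleavage factor I, whose target is UGUA upstream of it. The depletions addressed how the 2 factors bear on the choice between poly(A) sites. Each group had 1 library, so the spread between cultures is unknown, all intervals below are exact 95% intervals of counting error only, and p-values compare 2 libraries, not conditions. Reads were counted as deposited. Whether copies of 1 fragment made by PCR had been removed before that is not given, and none were removed here.

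The RNA duplexes that define the 2 depleted groups are shown because every contrast below rests on them. Each strand is written 5′ to 3′ as labelled, with capitals at the bases that the labels leave unspecified. The labels do not say which strand of the duplex it is.
CstF-64 siRNA: NNccugaaugggcgcgaauuc
CF Im 68 siRNA: NNgaccgagauuacauggaua

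The library without siRNA held 15806975 reads, that with control siRNA 13443454, that with CstF-64 siRNA 7343112 and that with CF Im 68 siRNA 12792623, so the CstF-64 library had the least depth. The 7 genes took between 0.0512% and 0.0651% of the reads of a library. CPSF6, the gene of CF Im 68, stood at 164 RPM for no siRNA, 186 for control siRNA, 180 for CstF-64 siRNA and 134 for CF Im 68 siRNA. The last was 0.718 times (95% interval 0.675 to 0.764) its control siRNA level and 0.812 times (0.763 to 0.863) its level without siRNA. Neither difference reached 1.5-fold. CSTF2, the gene of CstF-64, had 36.9, 23.7, 5.72 and 34.1 RPM at its end sites, in the same order. With CstF-64 siRNA this was 0.242 times the control siRNA level (0.171 to 0.334). A further CSTF2 cluster at position 100077350 of chromosome X held 82 reads in the CstF-64 library and 0 in each of the others, so that the whole CSTF2 window differed less, at 17.2 RPM against 23.9 with control siRNA. A lower level in every cell and a loss in only some of the cells cannot be told apart in such bulk libraries.

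The gene totals came first. Levels are given in RPM and are not divided by gene length, since a transcript has 1 end whatever its length. Without siRNA, CPSF3 (215 RPM) and SYMPK (215 RPM) were the highest, followed by CPSF4 (77.8), CPSF2 (61.9), WDR33 (29.7), CPSF1 (18.2) and FIP1L1 (7.65). The first of these neighbours did not differ beyond counting error, and the highest gene was 28.1 times the lowest. With control siRNA the order was SYMPK (178.5 RPM), CPSF3 (157), CPSF2 (93.9), CPSF4 (67.9), CPSF1 (37.8), WDR33 (30.8) and FIP1L1 (8.78). With CstF-64 siRNA the same order held, and the intervals of CPSF3 (117 RPM, 109 to 125) and CPSF2 (105 RPM, 97.3 to 112) overlapped. With CF Im 68 siRNA, CPSF2 headed the list at 211 RPM, ahead of CPSF3 (156) and SYMPK (139). There CPSF4 (48.7 RPM) and CPSF1 (47.0 RPM) had overlapping intervals, as had CPSF1 and WDR33 (40.4 RPM), and FIP1L1 was again last at 8.36 RPM.

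**Figure D1:**
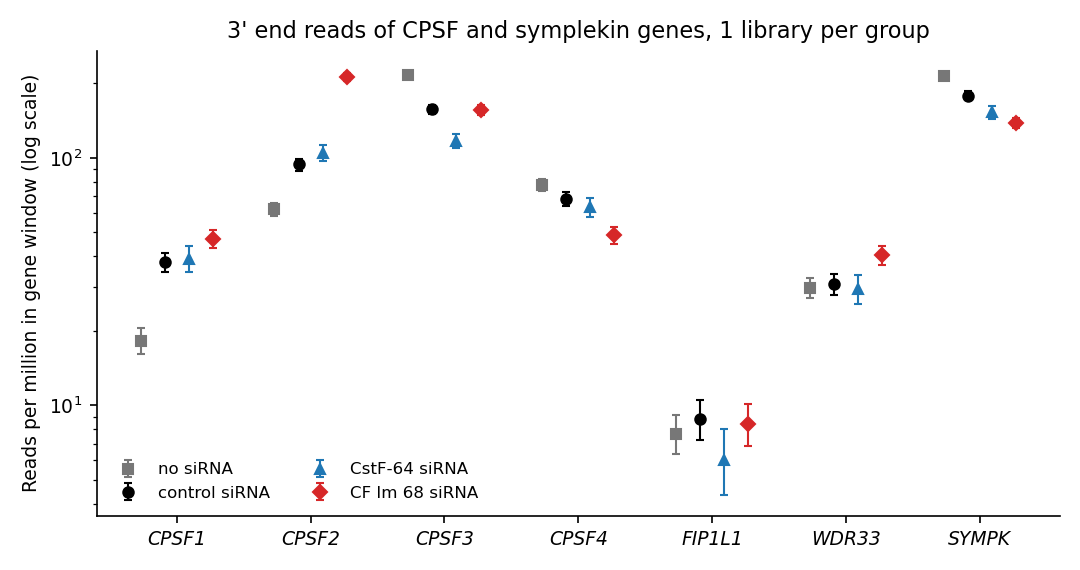
RPM in the window of each gene (log axis), 1 point per library, with exact 95% Poisson intervals. CPSF2 stands at 211 RPM in the CF Im 68 library against 61.9 to 105 in the other libraries, and FIP1L1 stays under 9 RPM in every library.

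A gene was called higher or lower after a depletion when its RPM differed at least 1.5-fold in the same direction from both control libraries. After CF Im 68 siRNA, 1 of the 7 genes was called higher, CPSF2, and 0 were called lower. Of 17877 loci (groups of sites within 10 kb on a strand) with at least 50 reads over all libraries together, 14.4% were called higher and 11.5% lower by the same rule. Locus totals held only reads in sites, whereas gene windows held all positions. The minimum of 50 lies below the reads of every member, so counting error can weigh more among the loci. After CstF-64 siRNA, 0 of the 7 genes were called in either direction, against 7.78% of loci higher and 23.3% lower. The control siRNA library against the one without siRNA, a contrast of 2 controls, gave 2 genes higher, CPSF1 and CPSF2, and 0 lower, against 26.1% and 11.8% of loci. With TMM or DESeq2 factors it gave 1 higher and 1 lower: CPSF2 dropped out, at 1.38 and 1.37 times, and CPSF3 came in as lower, at 0.666 and 0.660 times. These member counts lie near or under what the loci at large gave, so the counts alone do not set the complex apart.

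On the log2 scale (RPM plus a pseudocount of 1) the median of the 7 genes was -0.01 for CF Im 68 against control siRNA, beside 0.02 over all loci. For CstF-64 against control siRNA it was -0.11 beside -0.19. That last shift of all loci depends on the scaling. With TMM factors it became -0.01, the member median became 0.11, and the CstF-64 ratios of CPSF4 and WDR33 to control siRNA turned from lower to higher. With DESeq2 factors that of SYMPK turned as well, to 1.01. Against no siRNA, the median of all loci was 0.13 for CF Im 68 siRNA and 0.11 for control siRNA, and 0.00 for both with TMM factors.

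**Figure D2:**
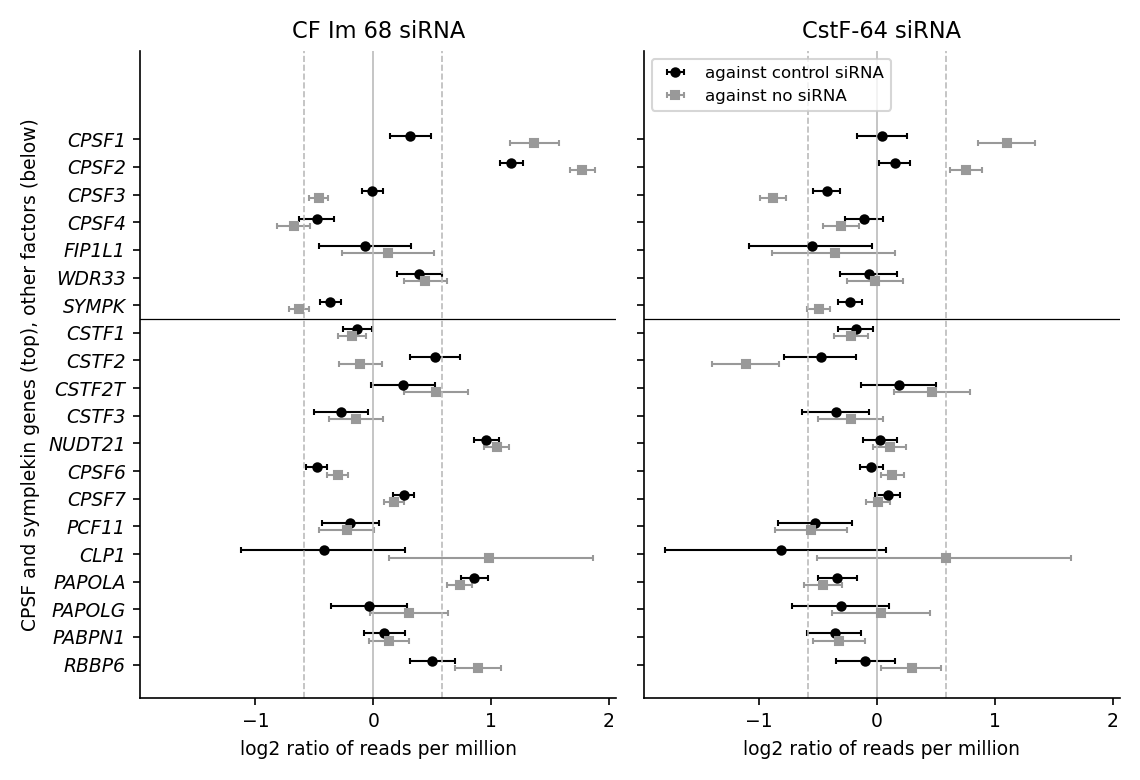
Log2 ratios of window RPM for the CPSF and symplekin genes (above the line) and 13 other 3′ end processing genes (below it), for CF Im 68 siRNA (left) and CstF-64 siRNA (right). Black circles are against control siRNA and grey squares against no siRNA, with exact 95% intervals of counting error. Dashed lines mark 1.5-fold, and CPSF2 lies beyond it against both controls only in the left panel.

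CPSF2, the partner of the endonuclease, had the largest difference of the 7 genes after CF Im 68 siRNA, and most of it lay at 1 poly(A) site. On the plus strand of chromosome 14 (window 92588000 to 92631500), no siRNA gave 979 reads, control siRNA 1263, CstF-64 siRNA 768 and CF Im 68 siRNA 2704. The CF Im 68 library was thus far above the other libraries. Its RPM was 2.25 times that with control siRNA (2.10 to 2.41) and 3.41 times that without siRNA (3.17 to 3.68). It was also 2.02 times that with CstF-64 siRNA (1.86 to 2.19), or 1.70 times with TMM and 1.67 times with DESeq2 factors. Control siRNA itself stood 1.52 times above no siRNA (1.39 to 1.65), so a smaller difference of the same direction was present between the controls.

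Reads of CPSF2 fell at 4 sites with at least 5% of its reads, and at 3 smaller ones with at least 1 RPM. The most used site, at 92628408, had 30.9 RPM for no siRNA, 51.9 for control siRNA, 58.3 for CstF-64 siRNA and 160 for CF Im 68 siRNA. The CF Im 68 level was 3.07 times that with control siRNA (2.82 to 3.36) and 5.17 times that without siRNA (4.68 to 5.72). All other CPSF2 reads together stood at 31.1, 42.0, 46.3 and 51.7 RPM in the same order, a ratio of 1.23 for CF Im 68 against control siRNA (1.10 to 1.38). Of the whole CPSF2 difference of 117 RPM from control siRNA, 91.7% lay at this single site. Within it the cut was sharp, with 96.3% of its reads at 1 of 20 positions.

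The downstream sites lay closer together across the libraries. At 642 nt downstream CPSF2 had 6.90, 6.84, 10.9 and 8.13 RPM, at 1328 nt 7.78, 10.9, 11.4 and 11.5 RPM, and at 2136 nt 10.1, 17.1, 16.1 and 13.4 RPM. The farthest of these was lower with CF Im 68 siRNA than with control siRNA, at 0.781 times (0.637 to 0.956), but higher than without siRNA, at 1.33 times (1.06 to 1.66). A low site 546 nt downstream had 33, 43, 20 and 67 reads, and there CF Im 68 siRNA was 1.64 times control siRNA (1.10 to 2.46) and 2.51 times no siRNA (1.63 to 3.93). Upstream, the sites 260 and 150 nt before the most used one reached a mean of 1 RPM only through the CF Im 68 library, so their low levels elsewhere follow from that choice and their values are descriptions. The first had 5, 7, 10 and 59 reads, and CF Im 68 siRNA was 8.86 times control siRNA (4.04 to 23.0). The second had 7, 7, 6 and 53 reads, with a ratio of 7.96 (3.60 to 20.7).

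**Figure D3:**
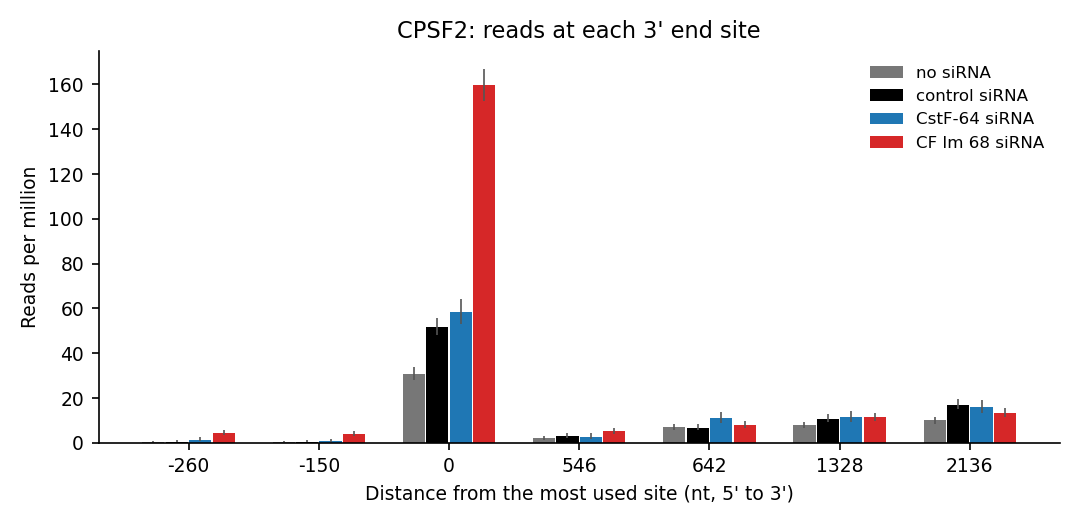
RPM at the CPSF2 sites with at least 1 RPM, by distance from the most used site (nt, categories not to scale), 1 bar per library with exact 95% Poisson intervals. The site at 0 reaches 160 RPM with CF Im 68 siRNA against 30.9 to 58.3 in the other libraries, and the site at 2136 nt stays between 10.1 and 17.1 RPM.

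The proximal share, the percentage of the reads of the 2 most used sites that lie at the 5′ one, put a test on this. For CPSF2 the pair was 92628408 and 92630544, and the share was 75.4% without siRNA (71.9 to 78.7, n = 647 reads), 75.2% with control siRNA (72.3 to 78.0, n = 928 reads), 78.4% with CstF-64 siRNA (74.7 to 81.8, n = 546 reads) and 92.3% with CF Im 68 siRNA (91.1 to 93.4, n = 2213 reads). The 3 former libraries overlapped, and the CF Im 68 library stood clear of them. The share rose by 17.1 points over control siRNA (two-sided Fisher's exact test, Benjamini-Hochberg adjusted p = 2.36e-34) and by 16.8 points over no siRNA (adjusted p = 9.09e-27). The direct contrast of the 2 depletions gave 13.9 points (Fisher's exact test, adjusted p = 4.24e-17). With CstF-64 siRNA the share was 3.17 points above control siRNA, which did not pass (Fisher's exact test, adjusted p = 0.356), and the controls differed by -0.21 points (adjusted p = 0.993). The read-weighted mean distance of CPSF2 ends from the most 5′ of the 4 main sites was 652 nt, 638 nt, 584 nt and 255 nt, so it was 384 nt shorter with CF Im 68 siRNA than with control siRNA.

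For a pair to be called, its adjusted p against control siRNA had to be under 0.05, and its share had to differ from each control by 10 points or more in 1 direction. Of the 4793 pairs with at least 50 reads in every library, 24.2% were called toward the proximal site after CF Im 68 siRNA and 2.63% toward the distal one. Only 3 of the 7 genes had such a pair (CPSF1, CPSF2 and WDR33). Of these, CPSF2 was called proximal and 0 distal. After CstF-64 siRNA 0 of the 3 were called in either direction, against 8.2% of all pairs proximal and 3.59% distal. Between the controls 21.7% of all pairs passed in either direction, and 0 of the 3 member pairs did.

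The other genes of the cutting module mostly had 1 end. CPSF3, the endonuclease itself (plus strand of chromosome 2, window 9563500 to 9614000), put between 99.4% and 99.6% of its reads at a single site around 9613230. That site was broad, with reads at 26 positions and 33.5% of them at the most used one. CPSF3 totals were 3400, 2110, 860 and 1996 reads, or 215, 157, 117 and 156 RPM, in the order no siRNA, control siRNA, CstF-64 siRNA and CF Im 68 siRNA. The library without siRNA was the highest and the CstF-64 library the lowest. CF Im 68 siRNA and control siRNA were level (0.994 times, 0.935 to 1.06). CstF-64 siRNA was 0.746 times control siRNA (0.689 to 0.808) and 0.544 times no siRNA, and control siRNA was 0.730 times no siRNA, so the 1.5-fold mark was reached against 1 control only. The first of these ratios depends on the scaling: it was 0.866 with TMM and 0.884 with DESeq2 factors, both above its counting interval.

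SYMPK, the scaffold (minus strand of chromosome 19, window 46318000 to 46367000), had 3398, 2400, 1122 and 1775 reads, or 215, 178.5, 153 and 139 RPM, in that order. It was lowest with CF Im 68 siRNA, at 0.777 times control siRNA (0.731 to 0.827) and 0.645 times no siRNA. It was not called, since the first ratio is short of 1.5-fold. Within SYMPK the sites went opposite ways. The main end at 46318708 had 205, 169, 145 and 124 RPM and stood at 0.732 times control siRNA after CF Im 68 siRNA (0.686 to 0.781). A site 3459 nt upstream, at 46322167, had 110, 77, 39 and 126 reads, and its level was 1.72 times control siRNA (1.28 to 2.31). Its share of SYMPK reads was 3.24%, 3.21%, 3.48% and 7.10%, near 3% in the first 3 libraries and apart only with CF Im 68 siRNA.

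This upstream SYMPK site lies under the 5% minimum for a pair. When the minimum was set to 2%, an alternative chosen after seeing the data, the SYMPK pair had proximal shares of 3.29%, 3.28%, 3.54% and 7.38%. The rise of 4.10 points with CF Im 68 siRNA had an adjusted p of 2.83e-08 (Fisher's exact test over 5365 pairs) but is under the 10 points a call needs. Of all pairs in that setting, 21.9% were called proximal.

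In the recognition module, CPSF4 (plus strand of chromosome 7, window 99036000 to 99055500) also had 1 main end, at 99054995, with between 96.1% and 98.7% of its reads. CPSF4 totals were 1229, 913, 463 and 623 reads, or 77.8, 67.9, 63.1 and 48.7 RPM, so the CF Im 68 library was the lowest. It stood at 0.717 times control siRNA (0.647 to 0.795) and 0.626 times no siRNA. It passed the 1.5-fold mark against no siRNA only and was not called. The CstF-64 library was at 0.928 times control siRNA with total scaling and at 1.08 times with TMM factors. CPSF4 and SYMPK were each the nearest to the other in their pattern over the 4 libraries, among the 19 genes compared (Euclidean distance of centred log2 values 0.174).

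WDR33, which reads the AAUAAA hexamer with CPSF4, is spread over a window of chromosome 2 (minus strand, 128458000 to 128569000) and had ends far apart. WDR33 totals were 470, 414, 216 and 517 reads, or 29.7, 30.8, 29.4 and 40.4 RPM. The CF Im 68 library was highest, at 1.31 times control siRNA (1.15 to 1.5) and 1.36 times no siRNA (1.20 to 1.54), short of a call. The gene's end and the sites over 10 kb upstream of its last site had different orders across the libraries. At the end, WDR33 had 12.5, 18.3, 18.4 and 28.4 RPM, and CF Im 68 siRNA was 1.55 times control siRNA (1.32 to 1.83) and 2.27 times no siRNA (1.90 to 2.71). Upstream it had 17.2, 12.5, 11.0 and 12.0 RPM. The upstream share of WDR33 reads was 57.9% without siRNA (53.3 to 62.4), 40.6% with control siRNA (35.8 to 45.5), 37.5% with CstF-64 siRNA (31.0 to 44.3) and 29.8% with CF Im 68 siRNA (25.9 to 33.9). The largest step was between the 2 controls, and the lowest share was with CF Im 68 siRNA.

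Site by site, the main WDR33 end at 128463504 had 117, 154, 98 and 231 reads. The upstream site at 128520688 had 88, 27, 5 and 6 reads. With CF Im 68 siRNA it was 0.234 times control siRNA (0.0788 to 0.577), and with CstF-64 siRNA 0.339 times (0.102 to 0.893). Both depletions were low there, and the library without siRNA was the highest. Its upstream neighbour at 128522049 had 75, 45, 40 and 57 reads and did not follow it. An intronic or exonic place is not assigned to these sites, because no hg19 annotation was used here.

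The 2 WDR33 sites at the end, 128463504 and 128458607, formed the tested pair. Its proximal shares were 78.0%, 82.8%, 92.5% and 83.1%. CF Im 68 siRNA differed from control siRNA by 0.298 points (Fisher's exact test, adjusted p = 1.0). CstF-64 siRNA differed by 9.66 points and did not pass (Fisher's exact test, adjusted p = 0.0739). The upstream pair, 128522049 and 128520688, had 45 reads with CstF-64 siRNA, under the minimum of 50. Its shares were 46.0% (38.2 to 54.0), 62.5% (50.3 to 73.6), 88.9% (75.9 to 96.3) and 90.5% (80.4 to 96.4), so both depletions lay above both controls. With a minimum of 20 reads it was called proximal for both. The rise was 28.0 points over control siRNA with CF Im 68 siRNA (Fisher's exact test, adjusted p = 0.000723) and 26.4 points with CstF-64 siRNA (adjusted p = 0.0150). In that setting 23.7% and 7.35% of 6119 pairs were called proximal, respectively.

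**Figure D4:**
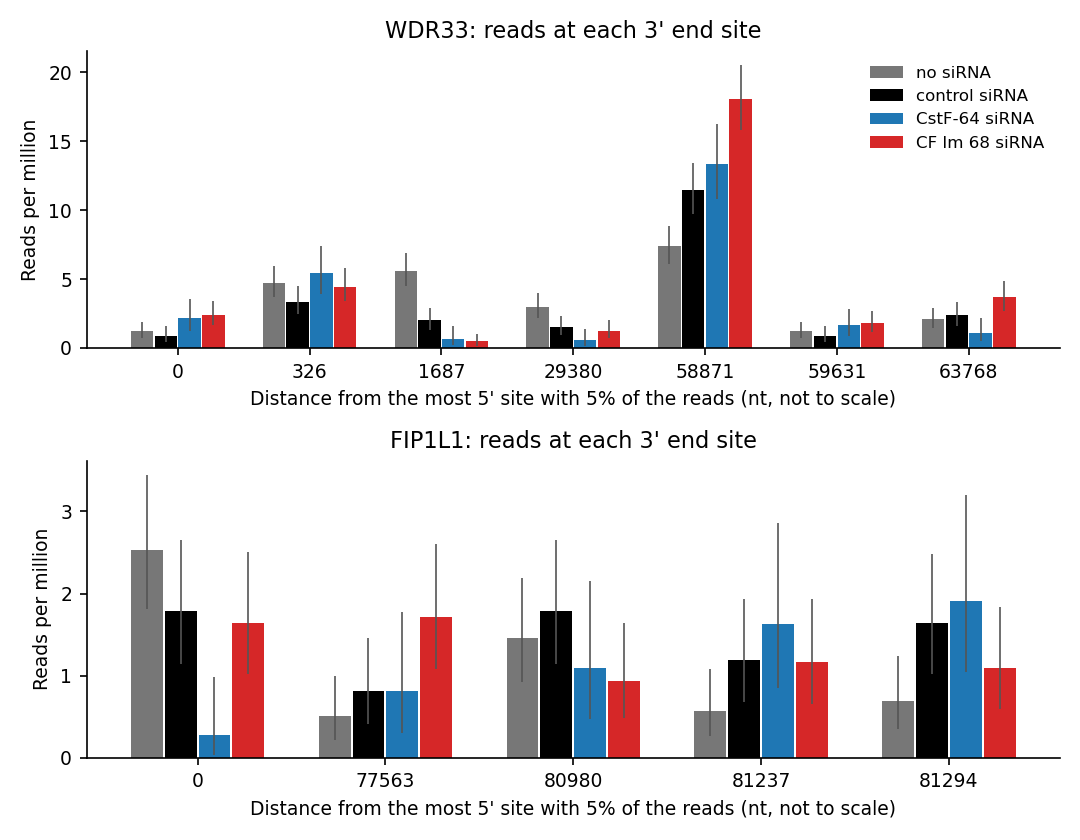
RPM at the WDR33 sites (top) and FIP1L1 sites (bottom), ordered 5′ to 3′ by distance from the most 5′ site drawn (nt, not to scale), 1 bar per library with exact 95% Poisson intervals. The WDR33 site at 1687 nt stands at 5.57 RPM without siRNA and 0.469 with CF Im 68 siRNA, and the end site at 58871 nt has the opposite order, 7.40 and 18.1 RPM.

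FIP1L1, the link to poly(A) polymerase (plus strand of chromosome 4, window 54243500 to 54327000), had the fewest reads, with 121, 118, 44 and 107. Its levels of 7.65, 8.78, 5.99 and 8.36 RPM had overlapping intervals in all 4 libraries. The CF Im 68 ratio to control siRNA was 0.953 (0.727 to 1.25) and the CstF-64 ratio 0.683 (0.471 to 0.973). At this depth only large differences are detectable. FIP1L1 ends were scattered over 81294 nt between the first and the last of 5 sites, and none held most of the reads in any library. A site 1047 nt into the window, at 54244547, had 40, 24, 2 and 21 reads. It held 33.1% of FIP1L1 reads without siRNA (24.8 to 42.2) and 4.55% with CstF-64 siRNA (0.555 to 15.5). The CstF-64 level was 0.153 times control siRNA (0.0175 to 0.615). Near the 3′ side, the site at 54322110 had 8, 11, 6 and 22 reads, and CF Im 68 siRNA was 2.10 times control siRNA (0.977 to 4.80), an interval that includes no difference.

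The FIP1L1 window ends before the last sites of that strand. A site 1855 nt past it, at 54328855, had 67, 50, 23 and 27 reads. The 10 kb past the window held 130, 113, 55 and 74 reads, about as many as the window. These reads were not counted for FIP1L1 here, and its ratios depend on that. With the window extended by 10 kb, its log2 ratio (pseudocount of 1) of CF Im 68 to control siRNA went from -0.06 to -0.26. That of CstF-64 to control siRNA went from -0.48 to -0.33. Past the CPSF2 window a site 6990 nt downstream had 36, 28, 7 and 33 reads. Each of the other 5 genes had at most 6 reads in any library in the 10 kb past its window.

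CPSF1, the scaffold of the recognition module (minus strand of chromosome 8, window 145618000 to 145635000), had 288, 508, 287 and 601 reads, or 18.2, 37.8, 39.1 and 47.0 RPM. The library without siRNA was the low one, and the 3 libraries of siRNA-treated cells were close together. CF Im 68 siRNA stood 2.58 times above no siRNA (2.24 to 2.98) but only 1.24 times above control siRNA (1.10 to 1.40). CstF-64 siRNA was at 2.15 and 1.03 times. Control siRNA alone was 2.07 times no siRNA (1.79 to 2.41), so most of the CPSF1 difference was already present between the controls. CPSF1 ended at 145618447, with between 87.8% and 96.5% of its reads. A second site 29 nt upstream had 28, 31, 7 and 29 reads, and the share of the pair at that site did not pass for CF Im 68 siRNA (Fisher's exact test, adjusted p = 0.452) or CstF-64 siRNA (adjusted p = 0.0783). The 2 CPSF1 sites merge when positions are grouped within 50 nt.

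**Figure D5:**
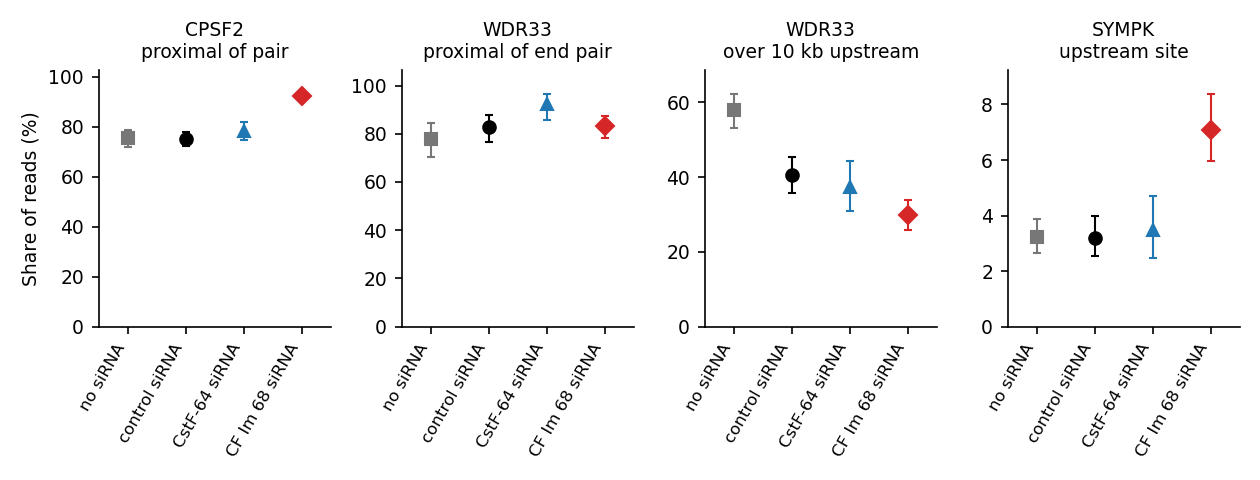
Shares of reads (%) by library with exact 95% Clopper-Pearson intervals: the proximal site of the CPSF2 pair, the proximal site of the WDR33 end pair, WDR33 reads over 10 kb upstream of its last site, and the SYMPK upstream site. CPSF2 (92.3%) and SYMPK (7.10%) stand apart with CF Im 68 siRNA, and the WDR33 upstream share is highest without siRNA (57.9%).

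For context, 13 other genes of 3′ end processing were measured the same way (CSTF1, CSTF2, CSTF2T, CSTF3, NUDT21, CPSF6, CPSF7, PCF11, CLP1, PAPOLA, PAPOLG, PABPN1 and RBBP6). After CF Im 68 siRNA, 2 of the 13 were called higher by total and 0 lower, beside 14.4% and 11.5% of loci. NUDT21, the gene of the small subunit of cleavage factor I, had 76.7, 81.4, 82.8 and 158 RPM, and PAPOLA, a poly(A) polymerase, had 81.1, 74.5, 59.1 and 135 RPM. PAPOLA lost its call with TMM factors, where it was 1.48 times no siRNA. After CstF-64 siRNA 0 of the 13 were called, beside 7.78% and 23.3% of loci. Neither targeted gene was thus called lower by total after its own siRNA. For CSTF2 the window total includes the further cluster described above, while its end reads were 0.242 times control siRNA and 0.155 times no siRNA. CPSF6 stood at 0.718 and 0.812 times. Between the controls CLP1 was called higher with control siRNA and CSTF2 lower. Of the 11 tested site pairs in these genes, 3 were called proximal after CF Im 68 siRNA (in CSTF2T, PCF11 and PAPOLA) and 1 distal (in RBBP6), beside 24.2% and 2.63% of all pairs. After CstF-64 siRNA 0 were called, beside 8.2% and 3.59% of all pairs.

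Among the other 6 members and these 13 genes, the gene nearest to CPSF2 in its pattern over the 4 libraries was NUDT21 (distance 0.558), followed by RBBP6 (0.663). FIP1L1 was nearest to PABPN1 (0.125) and PCF11 (0.239), WDR33 to CPSF7 (0.224) and PABPN1 (0.291), and CPSF3 to PCF11 (0.317) and SYMPK (0.410). After each other, CPSF4 was nearest to CPSF6 (0.339) and SYMPK to CSTF1 (0.321). The nearest genes to CPSF1 were RBBP6 at 0.585 and CSTF2T at 0.647, as far off as those of CPSF2. With 4 points per gene these distances are descriptions.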

How the data were processed

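A-seq was done on 4 HEK293 libraries, 1 per group. The deposited values were raw read counts per 3′ end position and strand (the submitters' processing notes name hg19 and GRCh37 as the build). How reads were aligned, and how multiple matches and PCR copies were handled, is not given in the sources used here. Between 10.2% and 12.2% of the authors' running numbers of positions were missing in each library, and the reason is not given. Reads primed inside A-rich stretches were not separated from true 3′ ends.

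Positions (1-based) within 25 nt of the most used one formed a cluster. Clusters with a mean of at least 1 RPM on chromosomes 1 to 22 and X were sites, and sites within 10 kb formed 18156 loci. RPM used the library total. The 2 most used sites with at least 5% of a locus formed the pair. Ratio intervals were conditional exact binomial. Alternatives used TMM (edgeR 4.0.16) and DESeq2 1.42.0 factors with no count model. Computation used Python 3.11.15, scipy 1.17.1 and R 4.3.3.

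Windows of the 13 other genes were set from known hg19 gene positions, not from a given annotation. Named genes were all 7 members, CPSF6, CSTF2, called genes of the list, and the 2 genes of nearest pattern to each member. Members and lists were chosen with earlier results of these data known. The identity of the cell line was not checked.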

Additional observations from a re-analysis of the deposited data

How the results depend on the processing

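CPSF2 was called higher after CF Im 68 siRNA under every alternative of scaling, filter, threshold, control, depth and window, and its pair was called proximal in all 10 alternatives for shares. With no siRNA as the single control, 2 members were higher (CPSF1 and CPSF2) and 2 lower (CPSF4 and SYMPK) after CF Im 68 siRNA, beside 32.1% and 18.9% of all loci. For CstF-64 siRNA, 2 were higher (CPSF1 and CPSF2) and 1 lower (CPSF3), beside 22.6% and 30.9%. The same single control gave 1 proximal call for CstF-64 siRNA, the WDR33 end pair, beside 19.0% of all pairs. Between the controls, 1 member was higher (CPSF1) and 1 lower (CPSF3) with TMM factors, and likewise 1 and 1 with DESeq2 factors, while 1 was higher at 2-fold and 1 in thinned libraries, against 2. With at least 20 pair reads, the proximal calls were 2 member pairs for CF Im 68 siRNA and 1 for CstF-64 siRNA, since the upstream WDR33 pair then entered. Of the 13 other genes, 1 was called higher after CF Im 68 siRNA with TMM factors, 1 with DESeq2 factors and 0 at 2-fold, against 2. The CstF-64 ratios to control siRNA were 1.03 for CPSF1, 1.11 for CPSF2 and 0.746 for CPSF3. With DESeq2 factors they became 1.23, 1.32 and 0.884. The WDR33 end pair changed from 0.298 to -0.870 points for CF Im 68 siRNA with 10-nt clusters and to -1.47 points when libraries were thinned to the smallest. With all window positions in place of sites of at least 5%, the mean end distance against control siRNA turned to -8.51 nt (CF Im 68) and -13.8 nt (CstF-64) for CPSF1, and for CstF-64 to 30.4 nt for CPSF2 and 193 nt for WDR33. The cause was not tested. The 10-kb extension of the windows and the 2% site minimum were chosen after seeing the data, the others with earlier results known. No paired analysis was possible because each group had 1 library. FIP1L1 and WDR33, with 44 and 216 reads in the CstF-64 library, were limited most by depth.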

Other observations

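PAPOLA, the poly(A) polymerase gene on chromosome 14, had the largest rise in proximal share among the tested pairs of the 13 other processing genes. Its site at 97031392 had 42 reads for no siRNA, 44 for control siRNA, 33 for CstF-64 siRNA and 639 for CF Im 68 siRNA. Its level with CF Im 68 siRNA was 15.3 times that with control siRNA (95% interval 11.2 to 21.2). The end site at 97033447 had 20.2, 29.4, 18.2 and 44.2 RPM. The proximal share of the pair was 11.6%, 10.0%, 19.8% and 53.0%, a rise of 43.0 points over control siRNA (two-sided Fisher's exact test, Benjamini-Hochberg adjusted p = 9.74e-61). Over control siRNA, PCF11 rose by 12.1 points (Fisher's exact test, adjusted p = 0.0354) and CSTF2T by 14.7 points (adjusted p = 0.00419). PCF11 shares were 11.7%, 20.5%, 31.2% and 32.6% in the same library order, so the 2 depletions were close together. Those of CSTF2T were 53.5%, 65.0%, 63.7% and 79.7%. Control siRNA already stood above no siRNA, by 8.76 points for PCF11 and 11.5 points for CSTF2T. Over the whole PAPOLA window the order differed: reads over 10 kb upstream of its last site made up 69.9%, 53.7%, 56.7% and 23.3%, so the mean end distance was 8307 nt longer with CF Im 68 siRNA than with control siRNA. The RBBP6 pair moved the other way, with shares of 43.4%, 33.1%, 37.9% and 23.1% (Fisher's exact test, adjusted p = 0.0437 against control siRNA).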
